A study of Drosophila melanogaster with 4 samples.

Results

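The genes described here were Pvf1, Pvf2, Pvf3, and Pvr, the 3 ligands and the receptor of the PDGF- and VEGF-receptor related (Pvr) pathway of Drosophila melanogaster. They were picked by gene symbol and make up 4 of the 13947 genes in the scRNA-seq gene list and 4 of the 17807 genes in the snRNA-seq list. The study followed the embryonic germline and the somatic gonadal precursors (SGPs), the mesodermal cells that join germ cells to form the gonad, in both sexes. All libraries came from embryos of the genotype vas-GFP, whose transgene makes germ cells green so that they, or whole gonads holding them, could be sorted by FACS. The 2 scRNA-seq libraries covered 0 to 8 h after egg laying (labelled germ cell, a re-analysis of earlier data) and 8 to 20 h (labelled embryonic gonad). Nuclei of 0- to 20-h embryos (also labelled embryonic gonad) gave a single multiome library, with snRNA-seq and scATAC-seq counts of the same nuclei. Each library was made from pooled embryos of both sexes and there was 1 library for each age window, so there was no replicate error, no test was run, and all intervals cover counting error only. Stages of germ cells before and after 8 h moved with the library and cannot be told apart from it, and somatic cells that are not SGPs reached a germline sort in ways that the labels do not describe.

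The aggregated scRNA-seq matrix held 16371 cells, with a median of 11766.5 unique molecular identifiers (UMIs, counted RNA molecules) in the 0- to 8-h library and 4896 in the 8- to 20-h library. The multiome library held 3022 nuclei with a median of 2423.5 UMIs and 1875 ATAC counts. No cell barcode was shared between libraries. Of the cells, 15006 fell into 21 classes: germ cells before zygotic activation (GC-like), female and male germ cells at 3 stages after it (FGC1 to FGC3-like and MGC1 to MGC3-like), female SGPs (FSGP-like), anterior, posterior, and male-specific male SGPs (aMSGP-like, pMSGP-like, and msSGP-like), hemocyte-like cells, and 9 classes of other somatic cells. The 4 genes took no part in clustering, naming, or sexing. Pvf1 had 1021 UMIs in all cells, Pvf2 216, Pvf3 1831, and Pvr 3824. Levels are given as counts per 1000000 UMIs of the class (CPM) with 95% exact Poisson intervals, and ratios of CPM with exact conditional intervals. Genes were compared with themselves across classes and not with each other.

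Pvr is a receptor tyrosine kinase, and its ligands Pvf1, Pvf2, and Pvf3 are secreted growth factors related to vertebrate PDGF and VEGF. Binding of a ligand activates the Ras and MAP kinase route and, through Rac, the actin cytoskeleton. In the fly the pathway is best known for the migration and survival of embryonic hemocytes (macrophage-like blood cells) and for guiding border cells in the adult ovary.

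Pvf1 (FBgn0030964) lies on chromosome X at X:18832682-18842901 on the plus strand. The other 3 genes lie on the minus strand of chromosome arm 2L, with Pvf2 (FBgn0031888) at 2L:7069536-7084635, Pvf3 (FBgn0085407) at 2L:7098188-7157695, and Pvr (FBgn0032006) at 2L:8220980-8239878. Positions and sequences come from the Release 6 genome (BDGP6). The 250 bases before a transcript start are shown for Pvf1 and Pvr, whose RNA differed most between gonadal cell types, for Pvf3 at the internal start whose chromatin differed between the sexes, and for Pvf2, the remaining ligand. Capitals mark GATAA on either strand (the core bound by GATA factors, one of which, Serpent, specifies hemocytes), TTCNNNGAA (the STAT motif), and ACAATGT on either strand (a core of the site of Doublesex, the sex-determination factor).
Pvf1, X:18832432-18832681, plus strand: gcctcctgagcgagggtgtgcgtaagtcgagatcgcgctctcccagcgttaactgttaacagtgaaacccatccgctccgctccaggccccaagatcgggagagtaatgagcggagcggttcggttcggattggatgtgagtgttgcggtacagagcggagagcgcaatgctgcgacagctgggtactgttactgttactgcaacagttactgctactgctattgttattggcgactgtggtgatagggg
Pvf2, 2L:7084636-7084885, minus strand: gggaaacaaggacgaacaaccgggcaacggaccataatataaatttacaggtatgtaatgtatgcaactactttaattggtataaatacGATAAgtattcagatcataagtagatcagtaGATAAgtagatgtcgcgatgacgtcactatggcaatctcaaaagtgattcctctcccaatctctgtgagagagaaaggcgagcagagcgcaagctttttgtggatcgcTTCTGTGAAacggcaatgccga
Pvf3, internal start, 2L:7134070-7134319, minus strand: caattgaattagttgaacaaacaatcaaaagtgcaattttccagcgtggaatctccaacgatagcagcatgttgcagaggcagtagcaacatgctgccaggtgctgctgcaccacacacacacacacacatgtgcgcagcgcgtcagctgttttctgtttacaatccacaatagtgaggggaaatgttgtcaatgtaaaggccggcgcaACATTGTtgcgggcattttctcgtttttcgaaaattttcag
Pvr, 2L:8239879-8240128, minus strand: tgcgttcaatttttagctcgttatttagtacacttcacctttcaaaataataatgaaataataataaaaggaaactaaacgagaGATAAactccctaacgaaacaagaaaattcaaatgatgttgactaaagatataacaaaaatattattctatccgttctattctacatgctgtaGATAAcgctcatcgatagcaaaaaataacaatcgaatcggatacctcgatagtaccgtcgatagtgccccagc

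The Pvf1 window held none of the 5 motifs searched, which besides these 3 were TATCGATA (DRE) and CAGGTAG (Zelda). The Pvr window held 2 GATAA matches, from -166 to -162 and from -73 to -69 relative to the start, and the Pvf2 window held 2 GATAA matches and 1 STAT match. The internal Pvf3 start had 1 Doublesex match in reverse, from -41 to -35. Among the starts not printed, the upstream Pvf3 start had 1 as well, from -225 to -219, and an internal Pvr start had 1 from -137 to -131. Among windows of the same length at 13960 starts of protein-coding genes, 50.3% held GATAA, 7.74% the STAT motif, 3.80% the Doublesex core, 7.99% the DRE, and 1.5% the Zelda motif. A match is a description of letters and shows no binding.

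Ligand and receptor differed in how they were spread over the cells. Pvf1 was highest in anterior and posterior male SGPs, Pvr in hemocytes and in female and anterior male SGPs, and Pvf3 in somatic cells outside the gonad, whereas germ cells held few UMIs of any of the 4 genes. The plot of levels by class shows these distributions.

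**Figure D1:**
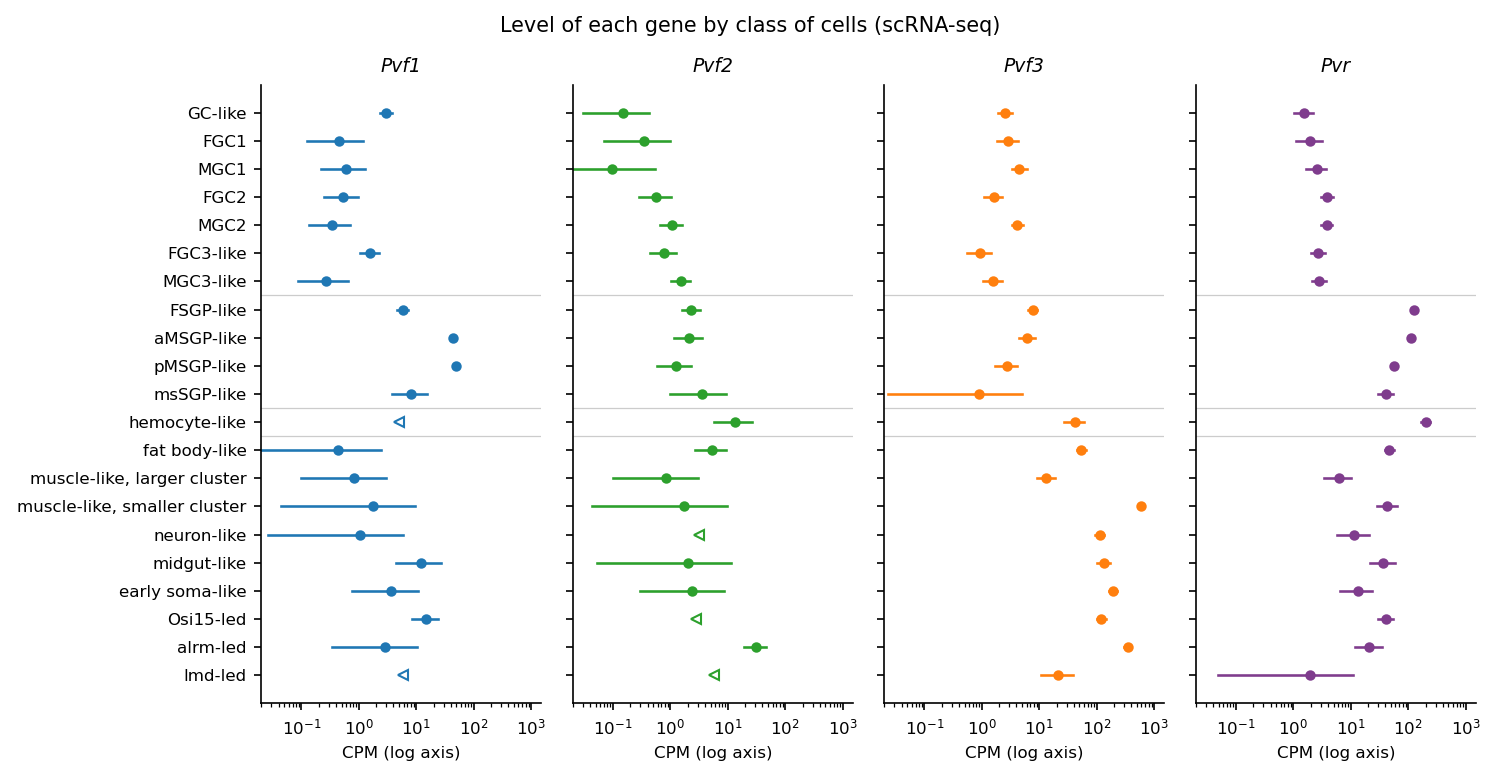
Level of each gene in each scRNA-seq class in CPM on a log axis, with 95% Poisson intervals for counting error; open triangles are classes with 0 UMIs, drawn at the level that 3 UMIs would give. Pvf1 peaks in pMSGP-like (49.5 CPM) and aMSGP-like cells (44.3 CPM), Pvf3 in the smaller muscle-like cluster (588 CPM), and Pvr in hemocyte-like cells (204.7 CPM).

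Pvf1, the ligand that guides border cells in the adult ovary, had 403 UMIs in 1625 pMSGP-like cells (49.5 CPM, 44.8 to 54.5) and 294 UMIs in 217 aMSGP-like cells (44.3 CPM, 39.4 to 49.7). These intervals overlapped, and the anterior to posterior ratio was 0.896 (0.768 to 1.04). FSGP-like cells had 79 UMIs in 3083 cells (5.86 CPM, 4.64 to 7.31), and msSGP-like cells 9 UMIs in 226 cells (8.15 CPM, 3.73 to 15.5). In these cells the male-specific SGPs, a group that persists in male but not female gonads, lay nearer to the female SGPs for Pvf1 than to the other male subtypes. That rests on the 9 UMIs, of which 3 came from 1 cell. Over all male SGP-like cells together Pvf1 was at 44.4 CPM, 7.58 times (6.0 to 9.69) the female level.

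In this comparison 11.0% of the 7937 genes with at least 20 UMIs were lower by 2-fold or more in FSGP-like cells and 11.6% were higher. Of the 4 genes, 1 (Pvf1) was past 2-fold lower and 0 past 2-fold higher, with Pvf3 at 1.90 (1.38 to 2.63) and Pvr at 1.63. Pvf3 did pass 2-fold higher in females without doublets (3.04), with finer clusters (3.60), with each cell counted equally (2.87), and with cells thinned to 2000 UMIs (2.58), and Pvr did in the last of these (2.38) and with each cell counted equally (2.29). In SGP nuclei the ratio of Pvf3 lay below 1, at 0.811 (0.472 to 1.36), with an interval that included 1. Against pMSGP-like cells alone Pvf1 was 8.44 times (6.62 to 10.9) higher in males, where 15.6% of genes were lower in females, and against aMSGP-like cells 7.56 times (5.88 to 9.82), where 6.92% were. Against msSGP-like cells the female to male ratio was 0.719 (0.360 to 1.63) and its interval included 1; there 7.03% of genes were past 2-fold lower in females. Position on the X chromosome went with little difference here: X-linked genes had a median female to male ratio of 1.05 in SGP-like cells and autosomal genes 1.01.

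Pvf1 was detected in 18.2% (16.3 to 20.1) of pMSGP-like cells at a median of 4756 UMIs per cell, and in 48.8% (42.0 to 55.7) of aMSGP-like cells at 20017 UMIs. In the larger muscle-like cluster, taken as cells that should lack the gene, the share was 0.360% at 4439 UMIs, and in FSGP-like cells it was 2.04% at 1948 UMIs. Cells were then thinned to 2000 UMIs, which left out 1608 of 3083 FSGP-like, 140 pMSGP-like, and 5 aMSGP-like cells that held fewer. Among the cells kept the shares were 7.54% (6.25 to 9.0) in pMSGP-like, 12.7% (8.56 to 18.0) in aMSGP-like, 1.42% (0.883 to 2.17) in FSGP-like, and 0.188% in the larger muscle-like cluster. At equal depth the anterior and posterior male shares stayed above that of the 1475 female cells kept, and the gap between anterior and posterior cells was smaller than before thinning.

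The posterior male class was made of 2 clusters that differed in Pvf1. The larger, with 1513 cells, held 402 UMIs (53.9 CPM, 48.8 to 59.4), while the smaller, with 112 cells at a median of 2787.5 UMIs, held 1 UMI (1.45 CPM, 0.0367 to 8.08). Their Pvr levels were close, at 55.3 CPM (50.05 to 60.9) and 62.3 CPM (45.1 to 84.0). The smaller cluster had a correlation of 0.633 with the pMSGP nuclei and -0.0284 with the FSGP nuclei over 2873 genes, a match that did not use the 4 genes. Its leading genes included Wnt6 and rgn, as in the female clusters, besides CG14072 and CG7194, as in the larger posterior cluster. The sex of the smaller cluster rests on the match to nuclei alone. The plot of SGP clusters shows the 2 posterior clusters beside the female clusters.

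**Figure D2:**
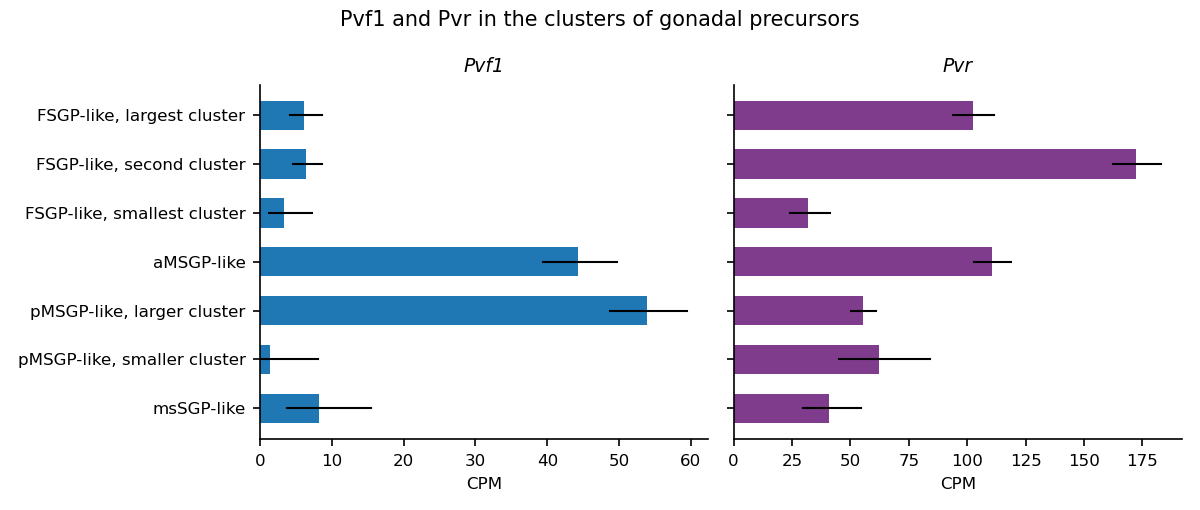
Pvf1 and Pvr in each cluster of SGP-like cells, in CPM with 95% Poisson intervals for counting error. The larger posterior male cluster and the anterior male cluster carry Pvf1 (53.9 and 44.3 CPM), the smaller posterior male cluster does not (1.45 CPM), and the female clusters differ in Pvr from 32.0 to 172.4 CPM.

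Pvr, the receptor, had 1703 UMIs in FSGP-like cells (126.4 CPM, 120.4 to 132.5), 734 in aMSGP-like cells (110.6 CPM, 102.8 to 118.9), 455 in pMSGP-like cells (55.9 CPM, 50.8 to 61.2), and 45 in msSGP-like cells (40.7 CPM, 29.7 to 54.5). In these summed counts female and anterior male SGPs were nearer to each other than to posterior male SGPs. The female to anterior ratio was 1.14 (1.05 to 1.25) and the female to posterior ratio 2.26 (2.04 to 2.51). With cells thinned to 2000 UMIs that order was not kept. Pvr was then at 133.9 CPM (121.0 to 147.8) in female, 75.5 (51.6 to 106.5) in anterior, and 55.2 (47.1 to 64.3) in posterior cells. Of these intervals only the anterior and posterior ones overlapped. Over all male SGP-like cells together the female to male ratio was 1.63 (1.51 to 1.75), and 2.29 when each cell counted equally and 2.38 after thinning. The posterior and male-specific classes could not be placed in order, since their intervals overlapped.

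Within the female SGPs the receptor differed between clusters. The 3 female clusters had Pvr at 172.4 CPM (162.4 to 182.8; 1118 cells), 102.5 CPM (94.1 to 111.6; 1680 cells), and 32.0 CPM (24.3 to 41.4; 285 cells). Their median depths were 2760, 1687.5, and 2580 UMIs, and levels by cluster were not thinned. Pvf1 was low in all 3, at 6.38, 6.11, and 3.31 CPM. Pvr was detected in 31.4% (29.8 to 33.1) of FSGP-like cells against 2.70% of the larger muscle-like cluster, and after thinning in 22.98% (20.9 to 25.2) of the 1475 cells deep enough against 0.564%.

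UMIs of ligand and receptor were found under some of the same cell barcodes of SGP classes, female as well as male. Cells marked as doublets were kept in these counts, and the part of droplets with several cells was not tested. Of FSGP-like cells, 39 had UMIs of both Pvf1 and Pvr, 24 of Pvf1 only, and 930 of Pvr only. Pvr was found in 61.9% of those with Pvf1 and 30.8% of those without, at median depths of 7751 and 1931 UMIs. Of 217 aMSGP-like cells, 92 had UMIs of both Pvf1 and Pvr, 14 of Pvf1 only, and 54 of Pvr only. Cells with Pvf1 had a median of 41157.5 UMIs there and cells without it 5714, so that depth moved with detection and its part in the joint detection was not tested. Depths were closer in pMSGP-like cells, at 5169 and 4661 UMIs, where 82 cells had both genes, 213 Pvf1 only, and 301 Pvr only, and Pvr was found in 27.8% of cells with Pvf1 and 22.6% of those without.

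Pvf2 and Pvf3, the neighbouring ligand genes on 2L, were low in every SGP class. Pvf3 had 103 UMIs in FSGP-like cells (7.64 CPM, 6.24 to 9.27) and 22 in pMSGP-like cells (2.70 CPM, 1.69 to 4.09), a ratio of 2.83 (1.77 to 4.71). In aMSGP-like cells it had 41 UMIs (6.18 CPM), but 15 of these came from 1 cell, without which the level was 3.93 CPM (2.57 to 5.75). The msSGP-like cells had 1 UMI of Pvf3 (0.906 CPM, 0.0229 to 5.05). Pvf2 had 31, 14, 10, and 4 UMIs in female, anterior, posterior, and male-specific cells, or 2.30, 2.11, 1.23, and 3.62 CPM, and its female to male ratio of 1.31 (0.757 to 2.26) had an interval that included 1. Past 2-fold higher in females were Pvf3 and Pvr against posterior cells, where 21.7% of genes were, and against male-specific cells, where 17.1% were. Between anterior and posterior male cells Pvf3 was past 2-fold (2.29, 1.33 to 4.03, where 15.2% of genes were higher in anterior cells and 15.4% lower), while Pvr came to 1.98 (1.76 to 2.23). Without the cell with 15 UMIs the Pvf3 ratio was 1.45, short of 2-fold.

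The nuclei gave a second library in which to look at the same subtypes, with the clusters of the study. Pvf1 had 7 UMIs in 314 FSGP nuclei (1.41 CPM, 0.569 to 2.92), 15 in 94 aMSGP nuclei (19.7 CPM, 11.0 to 32.5), 151 in 125 pMSGP nuclei (24.2 CPM, 20.5 to 28.3), and 3 in 51 msSGP nuclei (8.59 CPM, 1.77 to 25.1). The direction was that of the cells, and males together exceeded females 16.2 times (7.71 to 41.0). Against male-specific nuclei the female to male ratio was 0.165 (0.0376 to 0.987), below the 0.719 of the cells. It had too few UMIs for a call, and 2 of the 3 msSGP UMIs lay in 1 nucleus. X-linked genes had a median female to male ratio of 1.18 in these nuclei and autosomal genes 0.849. Here 14.3% of 7540 genes were lower in females by 2-fold or more and 7.71% higher, and of the 4 genes 1 was lower and 0 higher. By subtype, Pvf1 was past 2-fold lower in females against anterior nuclei (8.84% of genes lower, 14.5% higher) and against posterior nuclei (15.8% lower, 9.84% higher). Pvf2 and Pvf3 were past 2-fold higher in females against posterior nuclei (2.53, 1.13 to 6.04, for Pvf2 and 3.37, 1.51 to 8.23, for Pvf3), and anterior nuclei had 0 UMIs of Pvf3. A few deep nuclei weighed on these levels, since the 10 deepest held 37.7% of the UMIs of FSGP, 69.4% of aMSGP, 62.7% of pMSGP, and 67.7% of msSGP nuclei. With each nucleus counted equally the female to male ratio of Pvf1 was 0.0347, and Pvf3 against posterior nuclei fell short of 2-fold (1.77). Sex was legible in these nuclei from roX1, an RNA of the male dosage compensation complex, which was at 59.2 CPM in FSGP nuclei and at 1772, 644, and 2075 CPM in aMSGP, pMSGP, and msSGP nuclei. The scRNA-seq gene list used here has no roX1, and the sex of SGP-like cells rests on their match to these nuclei.

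Pvr in nuclei was at 55.2 CPM (48.8 to 62.1) in FSGP, 56.6 CPM (40.9 to 76.2) in aMSGP, 34.3 CPM (29.8 to 39.2) in pMSGP, and 40.1 CPM (21.9 to 67.2) in msSGP. Female and anterior male nuclei did not differ beyond counting error (ratio 0.976, 0.705 to 1.38), and female nuclei exceeded posterior ones by 1.61 times (1.34 to 1.94), or 1.30 times with each nucleus counted equally. Pvf3 went the other way from the cells in 1 subtype: msSGP nuclei held 35 UMIs (100.2 CPM, 69.8 to 139.3), although 48.6% of them came from 1 nucleus, against 24 in FSGP nuclei (4.85 CPM, 3.11 to 7.22). Pvf2 was also higher there, with 10 UMIs (28.6 CPM, 13.7 to 52.6) against 20 in FSGP nuclei (4.04 CPM, 2.47 to 6.24). In the female to male-specific comparison of nuclei 10.2% of genes were past 2-fold lower and 19.6% higher. Over all male SGP nuclei together (44 UMIs) the female to male ratio of Pvf3 was 0.811 (0.472 to 1.36), against 1.90 in cells.

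**Figure D3:**
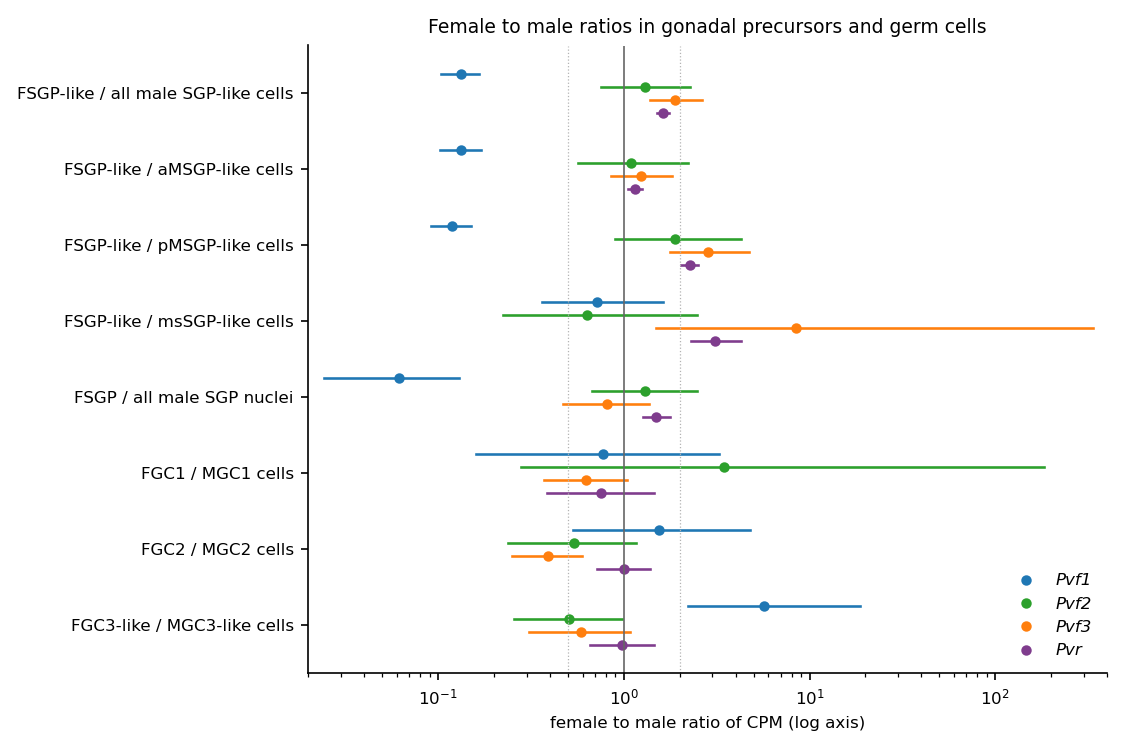
Female to male ratio of CPM for each gene in SGPs (cells and nuclei) and germ cells, on a log axis, with 95% intervals for counting error. Pvf1 lies below 1 in SGP-like cells (0.132) and in SGP nuclei (0.0616), and above 1 in the latest germ cells (5.71).

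Germ cells were compared by sex at each stage. In the earliest sexed cells Pvf3 had 25 UMIs in 699 FGC1 cells (2.84 CPM, 1.84 to 4.19) and 46 in 819 MGC1 cells (4.51 CPM, 3.31 to 6.02), a ratio of 0.629 (0.370 to 1.05), and Pvr had 17 and 26 UMIs, a ratio of 0.757 (0.385 to 1.45). Both intervals included 1. In nuclei the same ratios were 1.37 (0.668 to 2.85) for Pvf3 and 1.35 (0.684 to 2.68) for Pvr, again with intervals that included 1, where autosomal genes had a median of 1.39. Of the genes with at least 20 UMIs in the cells, 1.71% were past 2-fold higher in females and 1.30% lower, and 0 of the 2 genes with enough UMIs were. Pvf1 and Pvf2 had 10 and 4 UMIs in both sexes together.

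At the next stage Pvf3 had 31 UMIs in 892 FGC2 cells (1.61 CPM, 1.09 to 2.29) and 86 in 1001 MGC2 cells (4.13 CPM, 3.31 to 5.10). The male level was 2.57 times (1.68 to 4.01) the female one. Of the male UMIs 13 lay in 1 cell, and without it MGC2 was at 3.51 CPM (2.75 to 4.42). In this comparison 3.04% of 8224 genes were past 2-fold lower in females and 2.43% higher, and of the 3 genes with enough UMIs 1 was lower. Pvr was level between the sexes, with 74 UMIs in FGC2 and 80 in MGC2 cells, at 3.84 CPM in both (ratio 1.00, 0.719 to 1.39). Pvf2 had 11 and 22 UMIs, a ratio of 0.540 (0.237 to 1.16).

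In the latest germ cells Pvf1 was higher in females, opposite to the SGPs. FGC3-like cells had 32 UMIs in 1056 cells (1.56 CPM, 1.06 to 2.20) and MGC3-like cells 5 in 1181 cells (0.273 CPM, 0.0885 to 0.636), a ratio of 5.71 (2.21 to 18.8). Here 10.7% of 7940 genes were past 2-fold higher in females and 8.77% lower, and of the 4 genes 1 was higher and 0 lower. X-linked genes had a median ratio of 1.72 at this stage, with the central 95% from 0.611 to 6.24, and autosomal genes 0.871. Pvf1 is X-linked and lay inside that range. The sex of these clusters was read from their X-linked to autosomal UMIs, without the 4 genes, so the X-linked median is partly set by that choice. Pvf2 had 16 and 28 UMIs, a ratio of 0.510 (0.258 to 0.975), Pvf3 19 and 29 (0.584, 0.310 to 1.08), and Pvr 56 and 51 (0.979, 0.658 to 1.46).

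Over the stages the 4 genes followed different courses. Pvf1 was highest before activation, with 61 UMIs in 1685 GC-like cells (2.99 CPM, 2.28 to 3.84) against 10 UMIs in FGC1 and MGC1 cells together (0.527 CPM, 0.253 to 0.968), which is 5.67 times (2.88 to 12.4) lower. Of the GC-like cells 1666 belonged to the earlier library, as did 692 FGC1 and 817 MGC1 cells. Here 10.4% of genes were past 2-fold lower and 18.7% higher, and of the 3 genes with enough UMIs 1 was lower. In females it was higher again from FGC2 (0.519 CPM) to FGC3-like cells, 2.99 times (1.44 to 6.83), where 3.58% of genes were past 2-fold higher and 7.04% lower and 1 of the 4 genes was higher. In males MGC2 and MGC3-like cells had 7 and 5 UMIs.

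Pvr was at 1.52 CPM (1.03 to 2.15) in GC-like cells, 2.26 CPM (1.64 to 3.05) in both sexes at the earliest sexed stage, 3.84 CPM (3.26 to 4.50) at the middle one, and 2.75 CPM (2.25 to 3.32) at the latest. The middle stage was 1.70 times (1.2 to 2.44) above the earliest, a step that is also a change of library. Pvf2 went from 4 to 33 UMIs over the same step (ratio 3.91, 1.39 to 15.2, where 20.1% of genes were past 2-fold higher and 12.1% lower), and 1 of the 4 genes was past 2-fold higher. Pvf3 was at 1.58 CPM (1.06 to 2.27) in MGC3-like cells against 4.13 CPM in MGC2 cells, 2.61 times (1.70 to 4.13) lower, where 10.8% of genes were past 2-fold lower and 2.65% higher, and 1 of 3 genes was lower. That fall in level was not seen when each cell counted equally (ratio 1.02).

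All germ cell levels were far below the SGP levels for Pvf1 and Pvr. SGP-like cells together exceeded FGC2 and MGC2 cells by 63.0 times (39.1 to 109) for Pvf1, 26.0 times (22.1 to 30.8) for Pvr, 2.44 times (1.57 to 3.86) for Pvf2, and 1.95 times (1.53 to 2.49) for Pvf3, where 20.7% of 8987 genes were past 2-fold higher (38.0% lower) and 3 of the 4 genes were. SGP markers themselves had UMIs in germ cells. In FGC2 cells the 14 markers lay at 0.752% to 23.3% of their FSGP-like level (median 3.06%), and Pvr at 3.04%, inside that range; in MGC2 cells the range was 0.349% to 28.6% (median 2.90%) and Pvr was at 4.95%. The part of RNA from SGPs in the germ cell levels of Pvr was not tested. In FGC3-like cells Pvf1 was at 26.5% of the FSGP-like level, above all 14 markers (0 to 7.28%). In MGC3-like cells it was at 0.613% of the male level, near the median of 0.834%. Pvf2 and Pvf3 were above all 14 markers in FGC3-like (33.8% and 12.1%) and in MGC3-like cells (86.6% and 39.2%). These percentages take SGPs of the same sex only. The library pooled both sexes, and male SGP-like cells held Pvf1 at 44.4 CPM. The part of SGP RNA in the germ cell levels of the ligands was not tested.

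Hemocytes carried the highest receptor level of all classes. In 117 hemocyte-like cells 12 of 12 hemocyte markers had UMIs, with a summed level of 20314.5 CPM, and 10 stood 2-fold or more above the median of the clusters. Pvr had 124 UMIs in these cells (204.7 CPM, 170.3 to 244.1). It was detected in 53.0% (43.5 to 62.3) of them at a median of 3982 UMIs, and after thinning in 36.1% (26.6 to 46.5) of the 97 cells deep enough. The level was 8.17 times (6.53 to 10.2) that of other soma, meaning the remaining non-gonadal classes together (248 UMIs in 2405 cells, 25.1 CPM), and 2.05 times (1.70 to 2.45) that of all SGP-like cells. Fat body-like cells, which also carried hemocyte markers, held 108 of the 248 UMIs in other soma. The later library contributed 102 of the hemocyte-like cells, and the 15 cells of the earlier one held 1 UMI of Pvr.

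Among the ligands, hemocyte-like cells had 25 UMIs of Pvf3 (41.3 CPM, 26.7 to 60.9), 8 of Pvf2 (13.2 CPM, 5.70 to 26.0), and 0 of Pvf1 in 605676 UMIs, which allows up to 4.95 CPM. Pvf3 was 2.98 times (2.01 to 4.62) lower than in other soma and Pvf2 3.27 times (1.32 to 7.08) higher. Pvf1 stood at 3.23 CPM in other soma, under the limit that 0 UMIs allow in hemocytes, so a difference was not detectable at this depth. Past 2-fold against other soma were Pvf2 and Pvr upward, where 11.4% of 8253 genes were, and Pvf3 downward, where 31.2% were. Pvf1, at 0 UMIs, was not read as a call (ratio 0, 0 to 2.00).

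In hemocyte-like nuclei Pvr was also above the SGPs, with 76 UMIs in 69 nuclei (371.4 CPM, 292.6 to 464.8). That was 8.40 times (6.52 to 10.7) the level of all SGP nuclei, against 2.05 times (1.70 to 2.45) in cells. Pvf3 had 22 UMIs (107.5 CPM) and was 19.5 times (11.5 to 31.9) the SGP level, and Pvf2 had 6 UMIs (29.3 CPM), 8.39 times (2.92 to 19.8). With each nucleus counted equally these were 4.78 times for Pvr, 4.38 for Pvf3, and 4.03 for Pvf2. In the comparison 15.4% of 7617 genes were past 2-fold higher (28.7% lower) and 3 of the 4 genes were. In cells, the same 3 genes were past 2-fold higher in hemocytes than in SGPs, where 15.6% of genes were (26.6% lower), with Pvf3 at 7.26 times (4.57 to 11.1) and Pvf2 at 6.57 times (2.71 to 13.8).

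Pvf3, the ligand known with Pvf2 for drawing embryonic hemocytes along the nerve cord, had its highest levels in somatic cells outside the gonad. The smaller muscle-like cluster had 339 UMIs in 195 cells (588 CPM, 527 to 654), and 563 CPM without the cell with the most UMIs. The larger muscle-like cluster had 32 UMIs in 556 cells (13.2 CPM, 9.01 to 18.6), so that Pvf3 differed 44.6 times (31.0 to 66.3) between clusters of 1 named type. Pvr also differed there (25 UMIs, 43.4 CPM, against 15 UMIs, 6.17 CPM), and both are past 2-fold where 39.1% of 5445 genes were (11.4% were lower). The smaller cluster had all 10 muscle markers (28874 CPM summed) and also SGP markers at 3858 CPM summed against 186 CPM in the larger one, with upd1 at 0; the part of SGP RNA was not tested.

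Further classes had Pvf3 above 100 CPM with support from many cells. In 209 cells led by alrm, an astrocyte gene, Pvf3 had 247 UMIs (345.9 CPM, 304.1 to 391.9). There 7 of 7 glial markers stood 2-fold or more above the median of the clusters, but the cells stayed unnamed. In 130 early soma-like cells Pvf3 had 159 UMIs (191.4 CPM, 162.8 to 223.6), and in 240 cells led by Osi15 it had 131 (120.6 CPM, 100.8 to 143.1). The order from the smaller muscle-like cluster down to the early soma-like cells was clear of counting error at each step. Neuron-like cells had 109 UMIs (113.2 CPM, 92.9 to 136.5), overlapping the Osi15-led cells, and their level was 230.0 CPM (168.4 to 306.8) in the 0- to 8-h library and 82.6 CPM (63.4 to 105.6) in the later one. Midgut-like cells had 65 UMIs (133 CPM), but 54 of them lay in 1 cell, without which the level was 22.8 CPM (11.4 to 40.7).

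Below these came fat body-like cells with 124 UMIs of Pvf3 in 366 cells (54.1 CPM, 45.0 to 64.5). That class lacked 3 defining fat body markers (Adh, Lsp1alpha, and Lsp2 at 0) and had 8 of 12 hemocyte markers, with Hml, NimC1, eater, and He at 0. Its summed level was 2551 CPM for hemocyte markers and 2272 CPM for fat body markers. Its Pvr level of 47.1 CPM (38.7 to 56.9) overlapped that of pMSGP-like cells. The lmd-led cells had 11 UMIs of Pvf3 (21.3 CPM). For Pvr the smaller muscle-like cluster (43.4 CPM), Osi15-led cells (40.5 CPM), and midgut-like cells (36.8 CPM) followed with overlapping intervals, then alrm-led (21.0 CPM), early soma-like (13.2 CPM), and neuron-like cells (11.4 CPM), and lmd-led cells had 1 UMI.

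Pvf2 was the scarcest of the ligand genes by UMIs, and its highest level lay in the alrm-led cells with 22 UMIs (30.8 CPM, 19.3 to 46.7). Hemocyte-like cells (13.2 CPM) came next with an interval that overlapped, then fat body-like cells with 12 UMIs (5.24 CPM, 2.71 to 9.15). Neuron-like, Osi15-led, and lmd-led cells had 0 UMIs of Pvf2, which allows up to 3.12, 2.76, and 5.80 CPM. Pvf1 outside the gonad was highest in Osi15-led cells, with 16 UMIs (14.7 CPM, 8.42 to 23.9), and midgut-like cells, with 6 UMIs (12.3 CPM, 4.51 to 26.7), both below the anterior and posterior male SGPs.

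The chromatin at the starts of the genes did not follow the RNA for Pvf1. The peak over the Pvf1 start (X:18832263-18832712, 5′ untranslated exon) had 165 ATAC counts in FSGP nuclei (81.3 CPM of ATAC counts, 69.4 to 94.7), 33 in aMSGP nuclei (79.2, 54.5 to 111), 68 in pMSGP nuclei (60.4, 46.9 to 76.6), and 18 in msSGP nuclei (77.4, 45.8 to 122). The female to male ratio was 1.21 (0.952 to 1.55) with an interval that included 1, beside the RNA ratio of 0.0616 in the same nuclei. X-linked peaks had a median female to male ratio of 1.51 and autosomal peaks 0.891. Between SGPs and FGC2 nuclei the same peak was 1.96 times (1.51 to 2.56) higher in SGPs, just short of 2-fold.

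**Figure D4:**
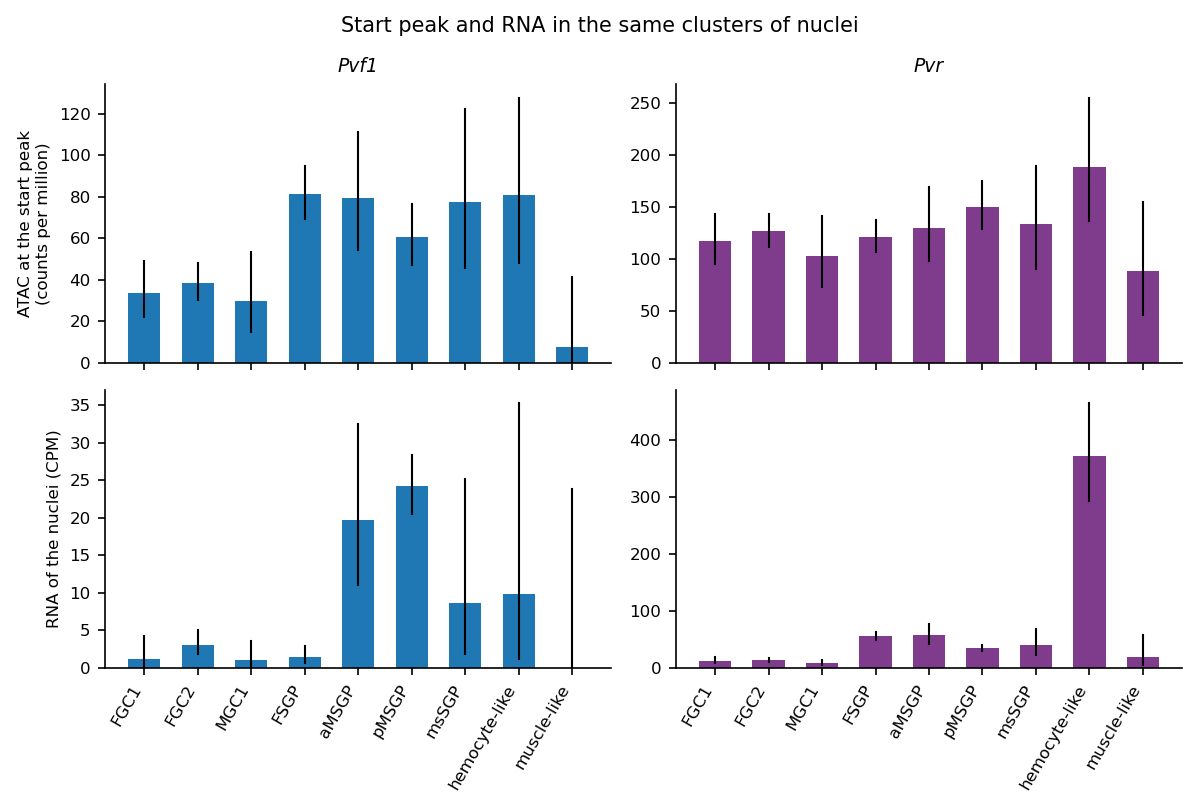
ATAC level (CPM of ATAC counts) at the start peaks of Pvf1 and Pvr (top) and their RNA in CPM (bottom). Both are from the same clusters of nuclei, with 95% Poisson intervals for counting error. For Pvf1 the start peak is of similar height in FSGP and aMSGP nuclei (81.3 and 79.2 CPM), while the RNA is at 1.41 and 19.7 CPM.

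A peak in the Pvf1 intron (X:18835173-18835658) was the one of this gene that was higher in germ cells by over 2-fold, with 167 counts in FGC2 nuclei (85.0 CPM, 72.6 to 98.9) and 83 in all SGP nuclei (21.8, 17.4 to 27.0). Across all peaks with at least 20 counts in this comparison, 10.1% were past 2-fold lower in SGPs and 11.2% higher, and of the 26 peaks of the 4 genes 2 were lower and 2 higher. The Pvr start peak (2L:8238263-8240191), which covers both upstream starts and the GATAA matches printed above, was open in every cluster with enough nuclei, at 121.2 CPM in FSGP, 143.1 in male SGP, 126.2 in FGC2, and 188.6 (42 counts, 135.9 to 254.9) in hemocyte-like nuclei. Its female to male SGP ratio was 0.847 (0.708 to 1.01), and SGP and FGC2 nuclei differed by a ratio of 1.04 (0.893 to 1.22), while Pvr RNA was at 44.2 and 12.9 CPM in the same nuclei.

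The internal Pvf3 start (2L:7133805-7135477) had 210 counts in FSGP nuclei (103.4 CPM, 89.9 to 118.4) and 96 in male SGP nuclei (54.1, 43.8 to 66.1). The ratio was 1.91 (1.49 to 2.46), and it was 1.96 against anterior and 1.97 against posterior male nuclei. Pvf3 RNA in the same nuclei had a female to male ratio of 0.811 (0.472 to 1.36). The upstream Pvf3 start, which also has a Doublesex match, had a ratio of 1.16 (0.725 to 1.86). Of all peaks with enough counts, 3.47% were past 2-fold higher in FSGP nuclei and 4.87% lower, and 0 of the start peaks of the 4 genes were. Of 25 peaks of the 4 genes with enough counts, 7 were past 2-fold higher in hemocyte-like than in all SGP nuclei and 1 lower, where 13.8% of 18889 peaks were higher and 18.8% lower. The highest ratio was that of a Pvr intron peak (2L:8229133-8229480; 19 counts, 85.3 CPM against 17.1, 4.99 times, 2.83 to 8.43). Of the Pvf3 peaks 5 were higher, among them the upstream start (2L:7157397-7157839; 15 counts, 3.24 times, 1.73 to 5.68) and a peak over a coding exon (2L:7155239-7156487; 19 counts, 3.61 times, 2.08 to 5.96), while the others had 6 to 10 counts and ratios of 2.63, 2.76, and 3.22. A Pvf1 intron peak (X:18836114-18836475) had 11 counts in hemocyte-like nuclei (49.4 CPM against 15.8, 3.13 times, 1.48 to 6.01), although Pvf1 RNA had 2 UMIs in them. The peak that was lower, of Pvf3 (2L:7100226-7100702), had 0 counts against 40, with a ratio of up to 1.65 by its interval. The Pvf2 start peak (2L:7084572-7085224) had 52 counts in FSGP and 53 in male SGP nuclei, a ratio of 0.858 (0.574 to 1.28).

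Genes downstream of the receptor, genes of receptor turnover, other receptor tyrosine kinases, and the ligands of those were counted from 5 lists with 46 genes. Between female and male SGP-like cells, all genes tested had a median ratio of 1.02, with 11.6% past 2-fold higher and 11.0% lower in females. The Ras and MAP kinase arm (10 genes, median 1.04), the Rac arm (7 genes, 1.22), and the genes of receptor turnover (3 genes, 1.30) had 0 members past 2-fold either way. Closest were sty, a feedback inhibitor of receptor tyrosine kinases (1.73, 1.67 to 1.79), and pnt, an ETS factor downstream of MAP kinase (1.70, 1.61 to 1.80). Of 13 other receptor tyrosine kinases with enough UMIs 3 were past 2-fold higher in females and 4 lower, with a median of 1.07. The highest were htl, an FGF receptor, with 831 UMIs against 205 (4.78 times, 4.10 to 5.60), and Cad96Ca with 15 against 5 (3.54 times, 1.22 to 12.4). The lowest were sev, a receptor of photoreceptor specification, with 94 against 443 (4.00 times higher in males, 3.19 to 5.05), and drl, a Wnt receptor, with 187 against 732 (3.32 times, 2.82 to 3.92). Of 9 ligands of such receptors 2 were past 2-fold higher in females and 0 lower.

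In hemocyte-like cells against other soma, the all-gene median was 0.787, with 11.4% of genes past 2-fold higher and 31.2% lower. Other receptor tyrosine kinases had 1 of 11 past 2-fold higher and 9 lower, with a median of 0.186, so that Pvr (8.17) and Ret (36 UMIs against 25, 23.5 times, 13.7 to 40.9) differed in direction from most of that list. In the Ras and MAP kinase arm 2 of 10 were higher and 2 lower (median 1.05), the higher being pnt with 143 UMIs against 511 (4.57 times, 3.77 to 5.52) and sty (4.43 times, 3.74 to 5.23). The Rac arm had 0 higher and 1 lower of 7, receptor turnover 2 higher of 3, and the ligands 0 higher and 3 lower of 8.

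Across the 21 classes, the profile of Pvf1 on the scale log2(CPM + 5) was most like those of Osi1 (Pearson r = 0.882), Best2 (0.877), ome (0.871), NPFR (0.870), and yellow-k (0.866). Pvr was most like Mrp4 (0.939), CG13868 (0.925), CG31808 (0.914), Gadd45 (0.908), and nrv1 (0.900). Pvf3 was most like Sulf1 (0.901), sli (0.884), dlp (0.844), retm (0.833), and CG10479 (0.821), and Pvf2 most like CG9664 (0.881), su(r) (0.851), CG34136 (0.820), moody (0.820), and Nepl15 (0.819). These were the 5 highest of 9221 genes for each and the classes share libraries and depth. Adding 1 CPM in place of 5 kept 4 of the 5 genes for Pvr but 1 of 5 for each ligand. Among the 4 genes themselves r was 0.53 for Pvf1 with Pvr, 0.46 for Pvf2 with Pvr, 0.40 for Pvf2 with Pvf3, 0.32 for Pvf3 with Pvr, and -0.04 for Pvf1 with either other ligand.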

How the data were processed

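Cells carrying vas-GFP were profiled on the 10x Genomics platform. The scRNA-seq reads were aligned to BDGP6 with Cell Ranger 6.1.2, and the authors deposited UMI counts for each gene and cell, with the sequencing depth of both libraries made equal in the aggregated matrix. That step thinned the 0- to 8-h library from 57370140 to 42374849 UMIs, and the 8- to 20-h library held 132310415. Multiome reads went through Cell Ranger ARC 1.0.0. The authors then removed nuclei below 1000 RNA counts and doublets (scDblFinder), obtained peak counts with MACS2 within Signac, and deposited counts for each gene and for each peak, 27225261 UMIs and 11524249 ATAC counts in all.

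Counts were read in Python 3.11.15 (numpy 2.4.6, scipy 1.17.1, pandas 2.3.3, scikit-learn 1.9.0, scanpy 1.11.5, leidenalg 0.10.2, matplotlib 3.10.9). Cells were clustered by Leiden (resolution 1, 150 principal components, 20 neighbours, seed 1) and took the name of a marker list if 3 or more of its genes stood 2-fold or more above the median of the clusters and no other list came close. FGC1, MGC1, FGC2, and MGC2 cells were sexed by the ratio of X-linked to autosomal UMIs (posterior of at least 95%), FGC3-like and MGC3-like clusters as a whole by the same ratio, and SGP-like clusters by their correlation with the SGP nuclei. Clusters of nuclei are those of the study, recovered by solving for the nuclei that give its listed cluster means, and held-out means came out 100% exact. Pvf1, Pvf2, Pvf3, and Pvr were left out of all of these steps. Scrublet marked 19 cells (0.500%) and 591 cells (4.70%) of the earlier and later library as doublets. They were kept, and left out as an alternative. A cluster of 674 cells with 68 UMIs of Pvf1 entered no class. MGC2 nuclei are not described, since their UMIs of Pvf1 and Pvr lay in 1 nucleus.

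Summed counts were scaled to 1000000 per class, with exact Poisson intervals, exact conditional (Clopper-Pearson) intervals for ratios, and exact binomial intervals for shares, all at 95%. A count of 0 was read as allowing 3 counts. A gene was past 2-fold when it had at least 20 counts in both classes together and a ratio of at least 2 or at most 0.5. Start peaks lay within 250 bp of an annotated start. The scripts were tested on simulated data. The genes named were the 4 genes of the set, for each of them the 5 genes with the highest Pearson r across classes among genes with at least 50 UMIs, and of 5 lists the 2 highest and 2 lowest in the female to male SGP ratio and the 2 highest in hemocyte-like cells. Beyond that rule, sty and leading genes of unnamed clusters and of the smaller posterior male cluster were named after their values were seen. The set and the lists were chosen with earlier results of these data known.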

Additional observations from a re-analysis of the deposited data

Results flagged for a closer look

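The female to male ratio of Pvf1 lay on opposite sides of 1 in the soma and in the germline of the gonad. It was 0.132 (0.103 to 0.167) in SGP-like cells and 5.71 (2.21 to 18.8) in the latest germ cells, FGC3-like against MGC3-like. With 1 library per age window the difference between these ratios was not tested, and the germ cell ratio rests on 32 and 5 UMIs.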

How the results depend on the processing

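The 8 main ratios kept their direction under all 55 alternatives save those against male-specific cells for Pvf2, and 38 values stayed within the counting interval. Of 904 alternatives to 367 other values, 731 stayed within it, 172 moved beyond it, and 1 reversed; thinning (95) and counting each nucleus equally (25 moved, 38 did not) moved the most. When each cell counted equally, the female to male SGP ratio was 0.0709 for Pvf1, 2.87 for Pvf3, and 2.29 for Pvr, and the hemocyte to other soma ratio of Pvr was 11.6. With cells thinned to 2000 UMIs the SGP ratio was 0.176 for Pvf1 and 2.38 for Pvr. Without doublets it was 3.04 for Pvf3 and 1.76 for Pvr, and with Leiden resolution 2 it was 3.60 for Pvf3. Against male-specific cells alone it was 0.719 for Pvf1, 0.635 for Pvf2, 8.44 for Pvf3, and 3.10 for Pvr; against posterior cells 2.83 for Pvf3 and 2.26 for Pvr; against anterior cells 1.24 for Pvf3 and 1.14 for Pvr. The ratio of Pvf3 between MGC3-like and MGC2 cells reversed to 1.02 when each cell counted equally. The causes were not tested. Alternatives added after seeing the data left the SGP ratios (without the smaller posterior male cluster) and the hemocyte ratios (the later library alone) within their intervals, and the values without 1 cell or with each nucleus counted equally stand beside the ratios they change. No paired analysis was possible because each group is 1 library. Depth limits Pvf2 throughout, and Pvf1 in germ cells and hemocytes.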
